A study of Mus musculus with 45 samples.

Results

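The genes of the microtubule motors were followed through cortical development: the kinesins numbered by family (Kif), the cytoplasmic dynein chains (Dync for heavy, intermediate and light intermediate chains, Dynl for light chains) and the dynactin subunits Dctn1 to Dctn6. Members were found by gene symbol, a rule that uses no measured value, although the family was picked with earlier results of these data known. In all, 65 symbols matched and 3 pseudogenes were left out, so that 62 of 53491 listed genes were members. By their known roles they comprise 11 mitotic kinesins, 15 transport kinesins, 12 other kinesins, 7 dynein heavy, intermediate and light intermediate chains, 9 dynein light chains and 6 dynactin subunits. The remaining members are Kif16bos and Kif1bp, a kinesin binding protein. Kif16bos is an RNA annotated as antisense, which lies beside Kif16b on the opposite strand and does not overlap it.

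Kinesins and dynein are ATPases that walk along microtubules. Most kinesins walk towards the plus end, and in axons this carries vesicles, mitochondria and RNA away from the cell body. Dynein, with dynactin as its activator, walks to the minus end, back along axons in neurons and towards the centrosome in dividing progenitors, where it also moves nuclei and orients spindles. A separate set of kinesins builds the spindle, moves chromosomes and drives cytokinesis, and its mRNAs are made mainly in cycling cells.

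The data are SLAM-seq libraries of primary cortical cells from WT mouse embryos. Pooled cortices (7 embryos per pool at E11.5, 2 per pool at E14.5 and E16.5) gave 3 replicates per stage (A, B and C), and all cells were cultured with 100 uM 4sU for 20 h, which labels newly made RNA. An excess of uridine (5 mM) was then added and separate wells of each pool were lysed after 0, 2, 4, 8 and 12 h of chase, which gave 45 libraries in 15 groups of 3. No library without 4sU was analysed here. All levels are those of cells plated for a day in medium for neural progenitors, and cortices of later stages had been digested with trypsin for longer.

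Libraries held 15.9 to 43.9 M reads (M, 1000000). The summed reads per 1000000 reads (CPM) of 5 progenitor markers at 0 h were 7919 to 8425 at E11.5, 2502 to 3189 at E14.5 and 978 to 1074 at E16.5, and those of 6 neuron markers were 2607 to 3124, 5561 to 6221 and 8421 to 8768. Vim took most of the progenitor sum, with means of 6985, 2324 and 708 CPM in stage order. Sox2 had means of 270, 119 and 82.3 CPM and Pax6 85.7, 49.1 and 28.3 CPM. Intermediate progenitor markers summed to 71.5 to 84.2 CPM at the first 2 stages and to 37.3 to 46.6 CPM at E16.5. The 2 markers of this list went opposite ways first. Eomes had means of 54.4, 35.7 and 25.9 CPM in stage order and Neurog2 19.2, 41.6 and 17.0 CPM. Interneuron markers summed to 33.6 to 40.8, 47.8 to 50.3 and 249 to 256 CPM in stage order. Red blood cell markers summed to 1640 to 3622 CPM at E11.5 and to at most 61.7 CPM later, and meningeal and mural markers to 421 to 642 CPM at E11.5 and at most 28.8 CPM later. Of the latter, Dcn went the other way, with means of 2.72, 8.20 and 5.45 CPM in stage order. Endothelial and microglial markers reached at most 5.75 and 11.97 CPM. Choroid plexus markers reached 322 CPM in 1 library at E16.5, against 4.22 CPM in the lowest, although Ccdc153 and Tmem212 were at 0 there. The part of this changing cell makeup in the results below was not tested. In bulk samples, fewer cells of a type and less RNA per cell cannot be told apart.

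Promoters are shown first because the mitotic kinesins moved together. In the RefSeq promoters (GRCm38, 250 bases before the start of transcription and 50 after it, 47 members matched), the cell cycle element TTTGAA or its reverse complement TTCAAA was found in 9 of 10 promoters of mitotic kinesins (90%). It was found in 1 of 13 promoters of transport kinesins (7.69%) and in 17.9% of all 32851 promoters. The CCAAT box, as CCAAT or ATTGG, was found in 60% of mitotic, 30.8% of transport and 37.4% of all promoters. It was also found in 60% of dynactin promoters (3 of 5), 42.9% of those of light chains and 41.7% of those of other kinesins. For dynein heavy, intermediate and light intermediate chains it was 16.7%, so the box was not particular to the mitotic class. The first element is known to bind repressor and activator complexes of the cell cycle. Here the letters are a description, and no binding was measured. The stretches below run from 60 bases before the start to 30 bases from it, on the strand of the gene, with both motifs in capitals, which do not overlap in any of them. Those of 4 mitotic kinesins are followed by those of 2 transport kinesins, Kif3c and Kif5c, whose stretches hold neither motif. They lie at chr19:37376322-37376411 (Kif11, plus strand), chr11:102925095-102925184 (Kif18b, minus strand), chr19:34922298-34922387 (Kif20b, plus strand), chr9:61946770-61946859 (Kif23, minus strand), chr12:3365072-3365161 (Kif3c, plus strand) and chr2:49619226-49619315 (Kif5c, plus strand).
Kif11: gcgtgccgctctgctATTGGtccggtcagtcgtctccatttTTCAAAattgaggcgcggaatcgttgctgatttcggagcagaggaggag
Kif18b: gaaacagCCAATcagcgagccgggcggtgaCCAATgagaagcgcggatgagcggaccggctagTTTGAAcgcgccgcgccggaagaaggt
Kif20b: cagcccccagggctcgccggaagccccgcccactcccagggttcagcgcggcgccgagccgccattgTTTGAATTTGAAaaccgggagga
Kif23: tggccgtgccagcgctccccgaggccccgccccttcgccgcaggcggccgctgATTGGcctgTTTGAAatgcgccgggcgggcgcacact
Kif3c: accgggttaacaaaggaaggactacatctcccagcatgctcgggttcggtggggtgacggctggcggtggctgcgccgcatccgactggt
Kif5c: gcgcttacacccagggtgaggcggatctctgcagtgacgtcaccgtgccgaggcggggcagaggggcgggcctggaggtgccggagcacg

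To compare levels between stages, the 0 h libraries were tested with edgeR's quasi-likelihood test on covered T positions over 18408 genes, of which 56 were members. A gene was called at an adjusted p under 0.05, and calls over 2-fold are given apart. From E11.5 to E14.5, 22 members rose and 15 fell, beside 25.1% and 23.5% of all genes tested, and over 2-fold 3 rose and 4 fell, beside 8.14% and 8%. From E14.5 to E16.5, 15 rose and 20 fell, beside 24.1% and 25.4%, and over 2-fold 2 and 11, beside 7.19% and 5.92%. Between the ends of the series, E16.5 against E11.5, 25 rose and 22 fell, beside 31.4% and 33.1%. Over 2-fold these were 7 and 16 members, beside 14.7% and 14.6% of all genes. The 3 comparisons share libraries. Kif12, Kif28, Kif2b, Dynlrb2, Dynlt1c and Kif16bos were too low to be tested.

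The classes went different ways. At E16.5 against E11.5 the median log2 fold change was -1.47 over the 11 mitotic kinesins, 0.75 over 15 transport kinesins and 0.32 over 6 dynactin subunits, beside -0.04 over all genes tested. It was -0.48 over 9 other kinesins, 0.13 over 7 dynein heavy, intermediate and light intermediate chains and 0.05 over 7 light chains. All 11 mitotic kinesins fell by over 2-fold. Of the transport kinesins 11 rose and 4 fell, 6 and 2 of them by over 2-fold, and all 6 dynactin subunits rose, none by over 2-fold. Among the 6 transport kinesins that rose by over 2-fold, Kif3b, Kif3c and Kif5c lay close to that limit, and Kif17 was under 1 CPM in every library.

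**Figure D1:**
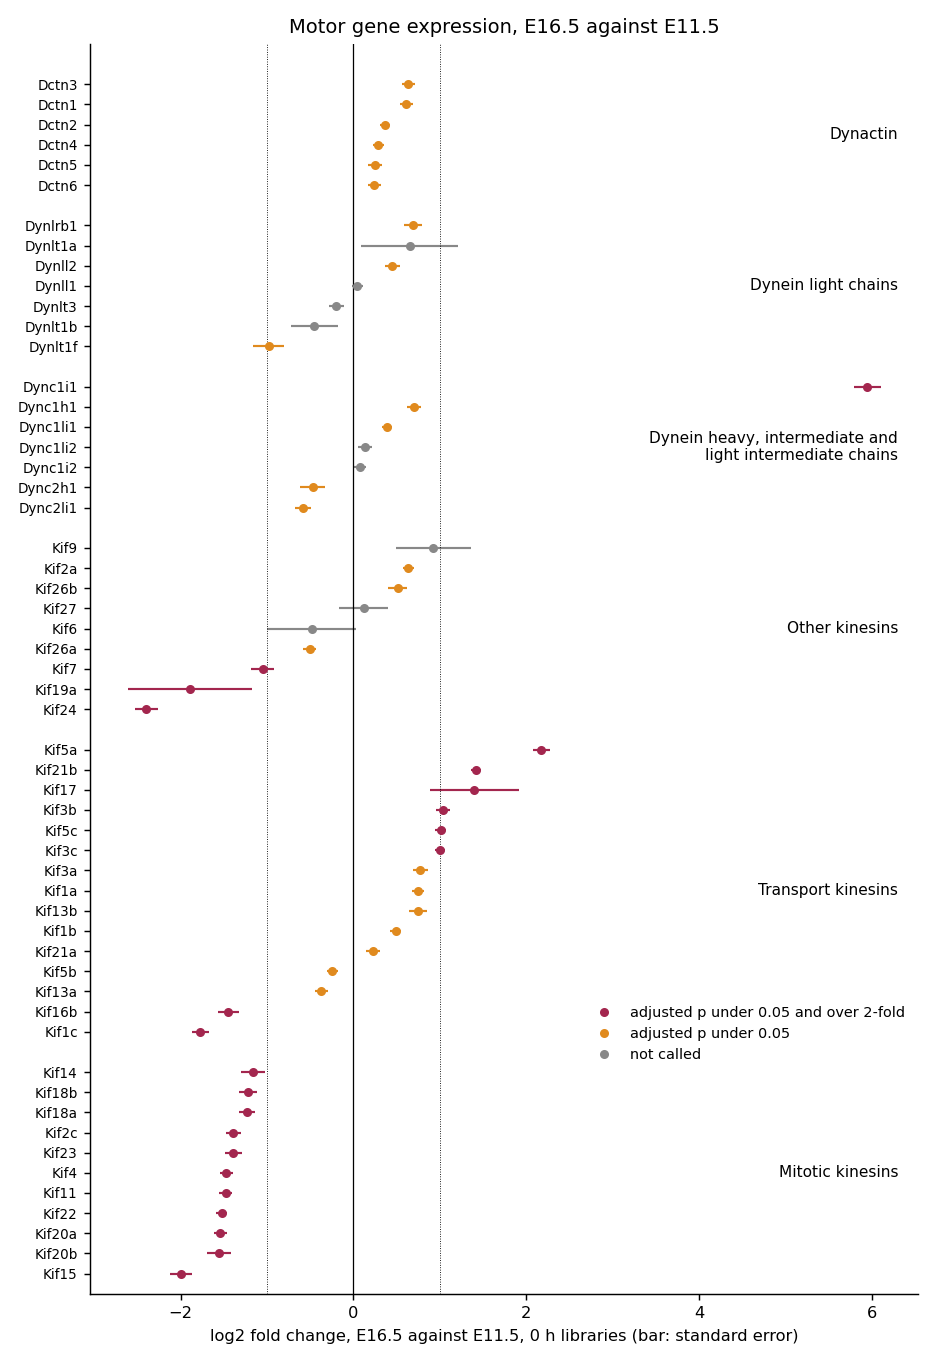
Log2 fold change of expression at 0 h, E16.5 against E11.5, for each tested member by class (point: estimate, bar: standard error, dotted lines: 2-fold). The 11 mitotic kinesins lie together on the left between -1.99 and -1.17, the dynactin subunits form a narrow group above 0, and Dync1i1 stands alone at 5.95.

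The mitotic kinesins fell in step, with most of the fall after E14.5. Kif11, the plus-end motor that pushes spindle poles apart, was at 169.7, 145.5 and 158.1 CPM at E11.5, at 114.9, 120.9 and 135.5 CPM at E14.5 and at 53.0, 56.6 and 50.6 CPM at E16.5 in replicates A, B and C. The 3 stages did not overlap. Its log2 fold change was -0.29 ± 0.08 (SE) in the first step (adjusted p = 0.0067) and -1.19 ± 0.08 in the second (adjusted p = 1.55e-07).

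Kif15, which backs up Kif11 in bipolar spindles, had the largest fall of the class. It went from 79.8, 61.6 and 65.1 CPM at E11.5 over 44.3, 44.6 and 54.6 CPM at E14.5 to 16.4, 18.7 and 15.2 CPM at E16.5, a 3.98-fold fall in all (log2 -1.99 ± 0.13, adjusted p = 1.6e-08). Every library of one stage lay below all libraries of the stage before, and between the first 2 stages 55.4% of all genes tested were apart in either direction. Kif14, a kinesin of the midbody in cytokinesis, had the smallest fall. It was at 29.4, 20.1 and 28.5 CPM at E11.5, at 20.2, 22.7 and 25.4 CPM at E14.5 and at 11.1, 11.8 and 10.2 CPM at E16.5. Its libraries overlapped between the first 2 stages and not between the last 2, and the log2 fold change E16.5 against E11.5 was -1.17 ± 0.14 (adjusted p = 8.3e-06).

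The other members of the class lay between these. Kif23, the motor subunit of centralspindlin at the midzone, went from 73.6, 65.4 and 70.4 over 50.9, 51.7 and 59.9 to 23.9, 28.9 and 23.3 CPM (log2 -1.39 ± 0.10, E16.5 against E11.5). Kif20a, which carries the chromosomal passenger complex to the midzone, went from means of 115 ± 7.58 and 95.5 ± 7.82 to 37.5 ± 0.669 CPM (SD, n = 3 each). Kif22, a chromokinesin, went from 104 ± 3.77 and 78.1 ± 3.31 to 34.6 ± 1.38 CPM. Groups of each of these 3 genes did not overlap between E16.5 and the earlier stages, as held in one direction or the other for 61.4% of all genes tested between E16.5 and E14.5 and for 71.4% between E16.5 and E11.5. Kif18a and Kif18b, which set chromosome alignment and microtubule length, fell by 1.23 and 1.22 on the log2 scale, and Kif2c, a microtubule depolymerase of centromeres, by 1.39.

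Already at E14.5, 8 of the 11 had fallen against E11.5, none of them by over 2-fold, with a class median of -0.30. Kif14, Kif18a and Kif2c had not passed, at log2 fold changes of -0.12, -0.14 and -0.22. The call of Kif20a was lost without E11.5 replicate A (adjusted p = 0.0865) or E14.5 replicate A or B (0.087 and 0.0577), and that of Kif20b without E11.5 replicate A or C (0.189 and 0.0672) or E14.5 replicate A or B (0.128 and 0.0788). From E14.5 to E16.5 all 11 fell with a median of -1.17, 10 of them over 2-fold. On the opposite strand Kif18a overlaps Mettl15, Kif20a Cdc23, Kif22 Gm31749 and Kif4 Pdzd11. Outside the class, Kif2a overlaps Dimt1 and Kif7 Ticrr there, and Kif3c, Kif5b, Kif6, Kif26b, Kif27, Kif1bp, Dync1h1, Dync1li2, Dctn6 and Dynlt1a overlap further genes. The kit marks strand, but whether the counting used it is not stated, so reads of these genes and their partners cannot be told apart. On the same strand Kif17 overlaps Sh2d5 and Kif1c the microRNA Mir6925.

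Among the transport kinesins, the rise was led by Kif5a, the neuronal heavy chain of conventional kinesin. It was at 59.1, 49.0 and 64.7 CPM at E11.5, at 145.9, 133.7 and 160.9 CPM at E14.5 and at 232.9, 253.8 and 241.8 CPM at E16.5. No library of one stage overlapped with another stage, and the total rise was 4.50-fold (log2 2.17 ± 0.10, adjusted p = 8.3e-10).

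The other heavy chains of conventional kinesin did otherwise. Kif5c, also neuronal, was at 331, 305 and 330 CPM at E11.5, at 568, 575 and 622 CPM at E14.5 and at 639, 601 and 629 CPM at E16.5. It rose by 2.01-fold in all, and E16.5 overlapped with E14.5 (log2 0.05 ± 0.06, adjusted p = 0.53). Kif5b, the heavy chain used in most tissues, was at 270, 254 and 253, then at 240, 265 and 244, and at 224, 211 and 199 CPM. Its fall lay in the last interval (log2 -0.22 ± 0.06, adjusted p = 0.011), and that call was lost without E16.5 replicate C (adjusted p = 0.0627). Per kilobase of exon, mean Kif5a was 8.24 CPM at E11.5 and 34.7 CPM at E16.5, while Kif5b was 32.4 and 26.5 and Kif5c 45.1 and 87.3, so that Kif5a was below Kif5b at the first stage and above it at the last.

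Kif21b, a slow motor that restrains microtubule growth in dendrites, completed its rise early. It was at 324, 292 and 285 CPM at E11.5, at 799, 813 and 791 CPM at E14.5 and at 775, 798 and 731 CPM at E16.5. The first step was 1.48 ± 0.06 on the log2 scale (adjusted p = 1.4e-09) and the second -0.06 ± 0.06 (adjusted p = 0.44). Kif1a, the carrier of synaptic vesicle precursors, rose in both steps. It was at 545, 467 and 465, then at 567, 580 and 576, and at 796, 778 and 769 CPM, with no overlap between stages and a total log2 fold change of 0.75 ± 0.07 (adjusted p = 3.8e-07).

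Of the kinesin-2 motors, which work in axons and in cilia, Kif3c went from 250, 245 and 235 over 390, 396 and 362 to 478, 450 and 451 CPM (2.00-fold). Kif3a went from 72.1, 59.1 and 67.6 over 94.8, 88.9 and 106 to 108, 106 and 104 CPM, and its last step overlapped (adjusted p = 0.11). Kif3b, the usual partner of Kif3a, rose in both steps, from 75.7, 59.2 and 71.3 over 95.4, 98.0 and 100.1 to 133.9, 133.3 and 128.9 CPM, with no overlap (2.04-fold). Kif17, which forms the homodimeric kinesin-2, was under 1 CPM in every library. Its log2 fold change of 1.40 ± 0.52 passed the test (adjusted p = 0.031) with as few as 3 reads in a library, and not without E11.5 replicate A (adjusted p = 0.108) or E16.5 replicate C (0.193).

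Not every transport kinesin rose. Kif1c, which moves integrins and dense core vesicles, was at 91.4, 94.5 and 89.2 CPM at E11.5, at 32.6, 42.8 and 33.3 CPM at E14.5 and at 26.1, 28.0 and 24.8 CPM at E16.5. The stages were apart, and the total fall was 3.42-fold (log2 -1.77 ± 0.10, adjusted p = 5.2e-09). Kif16b, an endosome motor, went from a mean of 14.8 ± 1.18 CPM (SD, n = 3) to 4.53, 6.14 and 4.67 CPM (2.73-fold), most of it before E14.5, when it was at 6.39, 6.40 and 6.28 CPM. Kif13a, which carries endosomes, fell by 0.56 and then rose by 0.19 on the log2 scale. That rise was lost without E14.5 replicate A or B or E16.5 replicate B or C (adjusted p = 0.0828 to 0.143).

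**Figure D2:**
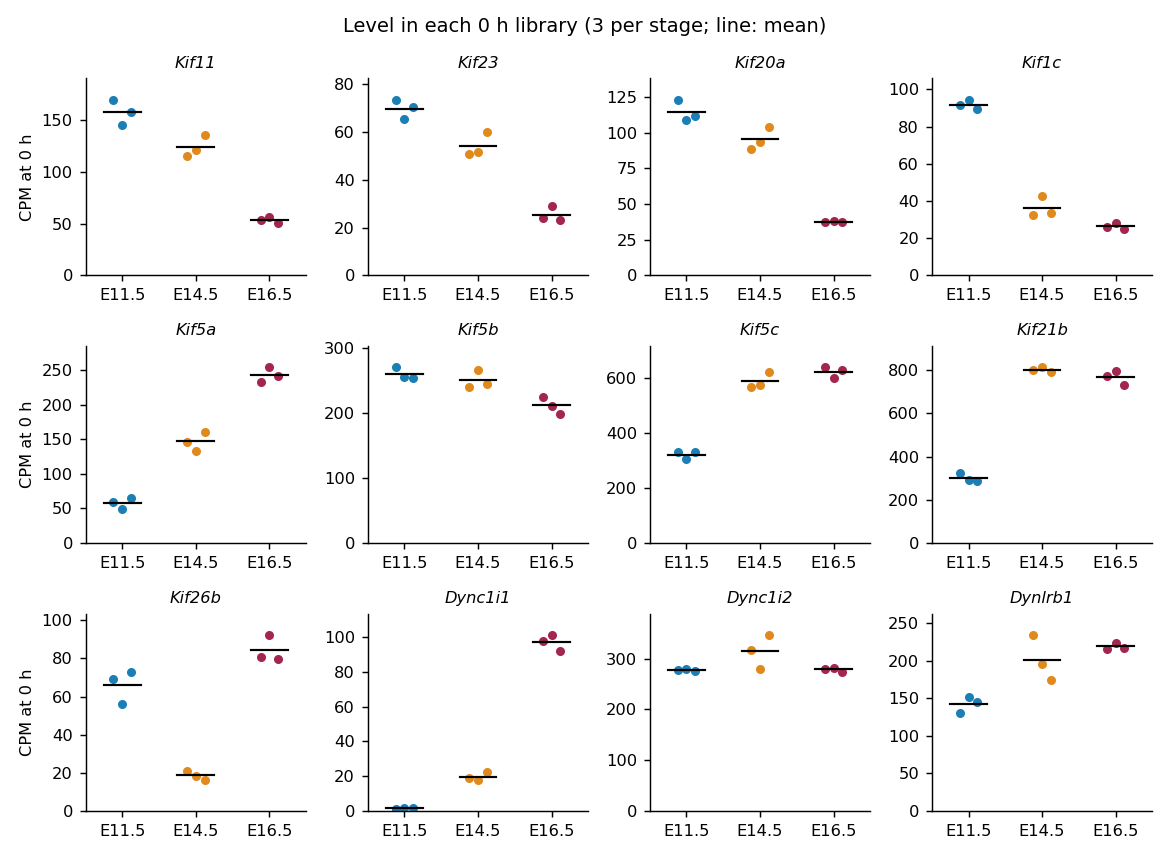
CPM of 12 members in each 0 h library, by stage (points: replicates A, B and C from left to right, line: mean, each panel with its own axis from 0). Kif11, Kif23 and Kif20a descend, Kif5a and Dync1i1 ascend at both steps, Kif5c and Kif21b ascend once, and Kif26b is lowest at E14.5.

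The other kinesins held the steepest fall and the only member whose direction turned by over 2-fold each way. Kif24, which acts at centrioles and represses cilia, was at 34.4, 28.6 and 27.5, then at 14.7, 14.9 and 15.1, and at 4.53, 5.97 and 5.77 CPM. It fell by 5.26-fold (log2 -2.39 ± 0.13, adjusted p = 3.8e-09), with no overlap. Kif7, a regulator of hedgehog signalling in cilia, fell by 1.05 on the log2 scale. Kif26b, an atypical kinesin, was at 69.4, 55.8 and 73.1 CPM at E11.5, at 21.1, 18.2 and 16.4 CPM at E14.5 and at 80.9, 92.2 and 79.7 CPM at E16.5. The E14.5 libraries were all below the rest, with log2 fold changes of -1.72 ± 0.11 (adjusted p = 7.4e-08) and 2.23 ± 0.12 (adjusted p = 3.5e-08). Gm16564 overlaps it on the opposite strand. The interneuron marker Dlx2 had means of 27.9 ± 3.68, 8.10 ± 2.10 and 50.7 ± 1.21 CPM (SD, n = 3 each) and was also lowest at E14.5. The other interneuron markers did not share its fall from E11.5 to E14.5. Gad1 and Gad2 rose (log2 4.65 and 2.60), as did the mean of Lhx6, and Dlx1 did not change by the test (-0.14, adjusted p = 0.31). Their sum was 33.6 to 40.8 CPM at E11.5 and 47.8 to 50.3 CPM at E14.5. The part of interneurons in the values of Kif26b was not tested.

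Kif2a, a depolymerase that trims axon collaterals, rose from 118, 115 and 108 over 125, 127 and 121 to 174, 157 and 162 CPM (log2 0.63 ± 0.06), whereas its mitotic relative Kif2c fell. Kif26a fell from 128, 124 and 113 over 119, 119 and 104 to 79.6, 87.8 and 80.5 CPM, all in the last step (log2 -0.48 ± 0.07). Kif6, Kif9, Kif19a and Kif27, mostly known from cilia, were at 2.35 CPM or less in each library. Of them Kif19a was called lower, at 0.587, 0.240 and 0.154 CPM at E11.5 and 0.114, 0.118 and 0.0267 CPM at E16.5. That call was lost without E11.5 replicate A (adjusted p = 0.177) or E16.5 replicate B or C (0.0558 and 0.112).

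The intermediate chains of dynein, which bind dynactin and cargo, showed the largest contrast among all members. Dync1i1, the neuronal form, was at 1.33, 1.64 and 1.96 CPM at E11.5, at 18.8, 17.7 and 22.3 CPM at E14.5 and at 98.0, 101.2 and 91.8 CPM at E16.5. Every library was above all those of the stage before, and the rise was 61.6-fold (log2 5.95 ± 0.16, adjusted p = 9.4e-12). Dync1i2, the form found in all cells, was at 279, 280 and 276, then at 318, 280 and 347, and at 280, 283 and 275 CPM, and E16.5 did not differ from E11.5 by the test (log2 0.07 ± 0.07, adjusted p = 0.37). Its rise to E14.5 (0.22 ± 0.07, adjusted p = 0.018) was lost without E14.5 replicate A (0.057) or C (0.0615). The interneuron markers Gad1 and Gad2 also rose in both steps, to 45.6 ± 2.70 and 39.1 ± 1.19 CPM at E16.5 (SD, n = 3) from 0.477 ± 0.0814 and 1.197 ± 0.268 CPM at E11.5, and so did the mean of Lhx6. The other interneuron markers rose in the second step only. In the first step Dlx2 fell (log2 -1.71, adjusted p = 2.8e-06) and Dlx1 did not change by the test (-0.14, adjusted p = 0.31). The part of interneurons in the rise of Dync1i1 was not tested. Per kilobase of exon, Dync1i1 had mean levels of 0.46, 5.49 and 27.2 CPM beside 33.6, 38.0 and 33.7 CPM of Dync1i2. This length joins all annotated exons, 3.57 and 8.28 kilobases, while the longest coding sequences have 1938 and 1917 nucleotides. Not divided by length, mean levels at E16.5 were 97.0 and 279 CPM, so the nearness of these forms at E16.5 depends on the annotation.

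Dync1h1, the motor chain itself, rose from 735, 668 and 736 over 960, 1054 and 968 to 995, 1099 and 1200 CPM. The last step overlapped (adjusted p = 0.10), and the total was 0.70 ± 0.08 on the log2 scale (adjusted p = 4.2e-06). Dync1li1, a light intermediate chain that binds cargo adaptors, rose by 0.39, while Dync1li2 was at 0.13 ± 0.08 (adjusted p = 0.15). The chains of dynein-2, the motor of cilia, went down: Dync2h1 had log2 -0.47 ± 0.14, lost without E11.5 replicate A (adjusted p = 0.0698) or E16.5 replicate A (0.0645), and Dync2li1 fell by 0.58.

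The light chains did not move as one class. Dynlrb1, of the roadblock family, was at 130, 152 and 145 CPM at E11.5, at 234, 195 and 175 CPM at E14.5 and at 216, 223 and 217 CPM at E16.5. It rose early (log2 0.50 ± 0.10, adjusted p = 0.0014), and the later stages overlapped. Dynll2, of the LC8 family of dimerisation hubs, was at 93.7, 124 and 93.8, then at 83.0, 89.8 and 86.4, and at 135, 130 and 133 CPM, and rose in the last step by 0.61 ± 0.09. Dynll1, the other LC8 chain, lay between 161 and 202 CPM in all 9 libraries (E16.5 against E11.5 log2 0.05 ± 0.06, adjusted p = 0.55). It was called higher at E14.5 than at E11.5, a call lost without E11.5 replicate A (adjusted p = 0.124) or E14.5 replicate A or C (0.091 and 0.0959). Dynlt3, of the Tctex family, was at 23.0, 23.8 and 25.3, then at 28.0, 26.6 and 30.4, and at 17.7, 20.7 and 22.0 CPM, and fell after E14.5 (log2 -0.46 ± 0.09, adjusted p = 0.0011). Its rise to E14.5 was also called, and lost without E11.5 replicate A or B or E14.5 replicate A or C (adjusted p = 0.0581 to 0.0892).

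The Dynlt1 genes are near-identical copies whose reads cannot be assigned with certainty. Dynlt1a was at 0.297 to 3.61 CPM, Dynlt1b at 0.801 to 1.75 CPM, Dynlt1c at 0.0660 to 0.403 CPM and Dynlt1f at 3.26 to 11.7 CPM over the 9 libraries. The pseudogene Dynlt1-ps1 took 83.5% to 90.5% of the summed reads of the family. Dynlt1f was called lower at E16.5 against E11.5 (log2 -0.98 ± 0.18), but the sum of the family was 84.7 ± 14.1, 61.5 ± 6.29 and 76.6 ± 6.80 CPM (SD, n = 3 each), which overlapped between E11.5 and E16.5. No direction is given for the family.

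All dynactin subunits rose modestly. Dctn1, the p150 subunit that holds the microtubule, was at 181, 181 and 182, then at 202, 212 and 180, and at 276, 252 and 261 CPM (E16.5 against E11.5 log2 0.61 ± 0.07, adjusted p = 9.1e-06). Dctn3, of the shoulder of the complex, was at 40.7, 49.3 and 43.4, then at 60.5, 55.5 and 59.9, and at 65.7, 65.9 and 68.9 CPM (0.64 ± 0.08). Dctn2, also of the shoulder, rose by 0.36, and Dctn4, Dctn5 and Dctn6 of the pointed end by 0.28, 0.25 and 0.24. For all 6 the E16.5 libraries were above all E11.5 libraries, and 71.4% of all genes tested were apart in one direction or the other. The call of Dctn5 was lost without E11.5 replicate B (adjusted p = 0.0567) or E16.5 replicate B (0.0582). The smaller calls of Dctn2 and Dctn3 from E14.5 to E16.5 (adjusted p = 0.027 and 0.034) were lost without most single libraries of these stages, with adjusted p up to 0.0769 and 0.109.

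Per kilobase of annotated exon, Dynlrb1 was the most abundant member at every stage, with 141 ± 10.9 CPM at E11.5 and 217 ± 3.91 CPM at E16.5 (SD, n = 3). At E16.5 it was followed by Kif5c at 87.3 ± 2.81 and Kif1a at 83.7 ± 1.43, which did not differ beyond their spread, and then by Dync1h1 at 70.1 ± 6.53. Dctn3 at 64.1 ± 1.73, Kif21b at 63.0 ± 2.81 and Kif3c at 62.1 ± 2.15 came next, and the replicates of these 4 overlapped along the order. At E11.5 Kif1a stood at 52.8 ± 4.90, and Dync1h1, Kif5c, Dynll1 and Dctn3 lay between 42.7 and 45.5 without differing beyond their spread. The exon length joins all annotated isoforms, so this order depends on the annotation. Dctn2 has 4.795 kilobases of exon, while its longest coding isoform has 1209 coding and 463 3′ UTR nucleotides. Kif5c has 7.142 kilobases beside 2871 and 3621 nucleotides. Of all members, 47 were above 10 CPM in the mean at the first 2 stages and 45 at E16.5, and 10 were below 1 CPM at each stage.

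Genes that work with the motors, or act in cell division beside them, were listed by role. The list of spindle partners also holds general cell division genes, among them Mki67, Top2a, Ccnb1 and Cdk1. Of 18 spindle partners (kinases, passenger and centralspindlin proteins, and others), all 18 fell at E16.5 against E11.5 by over 2-fold (14.6% of all genes did), with a median of -1.46, led by Bub1 (-1.80) and Ect2 (-1.69). Of 18 kinesin partners 13 rose and 3 fell, with a median of 0.81. Sybu, an adaptor of Kif5 on syntaxin vesicles, rose by 3.89, the kinesin Kifc2 by 2.58, and Cenpe and Klc3 fell by 1.57 and 1.30. Of 21 dynein and dynactin partners 9 rose and 5 fell, with a median of 0.10, beside the 31.4% and 33.1% of all genes tested that rose and fell. Here Bicdl1 and Ndel1 rose by 1.69 and 0.88, while Nde1, the relative of Ndel1 used in progenitors, and Spdl1, the kinetochore adaptor, fell by 1.65 and 1.44. Cenpe and Kifc1 are in the lists of both kinesin and spindle partners.

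Next, levels during the chase were examined, since half-lives are measured over these 12 h. At 12 h against 0 h, 14 members were higher and 1 lower at E11.5 (beside 10.3% and 8.18% of all genes), 5 and 8 at E14.5 (6.29% and 5.63%), and 15 and 10 at E16.5 (13.1% and 11.4%). The only change over 2-fold was the rise of Dync1i1 at E11.5 (log2 1.01 ± 0.21, adjusted p = 0.0083), from a mean of 1.64 to 2.73 CPM, beside 1.32% of all genes. The other shares of genes over 2-fold were 2.36% lower at E11.5, 0.676% and 1.31% higher and lower at E14.5, and 0.625% and 2% at E16.5, and held no member. The rise of Dync1i1 was not over 2-fold without E11.5 replicate A or B, or on reads in place of covered T positions.

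The mitotic kinesins moved down over the chase in the later cells and not in E11.5 cells. Their summed level at 0 and 12 h was 822 ± 67.1 and 859 ± 79.8 CPM at E11.5, 646 ± 41.5 and 507 ± 22.8 CPM at E14.5, and 282 ± 14.1 and 218 ± 13.6 CPM at E16.5 (SD, n = 3 each). The 0 h and 12 h libraries overlapped at E11.5 and were apart at E14.5 and E16.5. At E11.5 the sum was highest at 8 h, with 991 ± 19.6 CPM. The transcript Gm42418 took 29686, 35413 and 67623 CPM at 12 h at E11.5, beside 4582, 3862 and 9482 CPM at 0 h. At the later stages it was at 1656 to 3203 CPM at 12 h. CPM are shares of all reads, and the part of Gm42418 in the E11.5 values was not tested. The edgeR tests below scale libraries anew (TMM), so their fold changes are not ratios of these CPM.

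By the test, 5 mitotic kinesins were higher at 12 h at E11.5, with a class median of 0.26. This count was 0 without replicate A or B, 2 without replicate C and 9 with the pool as a block. At E14.5, 7 were lower with a median of -0.33, and 2 without any one replicate. At E16.5, 9 were lower with a median of -0.33, and 3 without replicate A.

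The difference between stages was tested directly. Against E11.5, the change over 12 h was lower at E14.5 for 10 of 11 mitotic kinesins and lower at E16.5 for 9 of 11, beside 4.19% and 4.66% of all genes tested. Leaving out single pools gave 8 to 10 and 8 to 9. Between E16.5 and E14.5 the edgeR test called 0 of 11 lower (0.128% of all genes were), with 0 at an unadjusted p under 0.05 and a lowest adjusted p of 0.537. Kif23 at E16.5 went from 25.3 over 20.8, 20.5 and 16.3 to 15.7 CPM in the means at 0, 2, 4, 8 and 12 h, and its 12 h level was 0.651, 0.590 and 0.629 of the 0 h level in replicates A, B and C. At E11.5 the same ratios were 0.922, 0.872 and 0.797. Kif14 had the largest difference, -1.03 on the log2 scale between E16.5 and E11.5, with ratios of 0.547, 0.504 and 0.573 against 0.981, 1.288 and 0.803. Summed progenitor markers spanned 7919 to 8425 CPM at 0 h and 5590 to 6742 CPM at 12 h at E11.5. At E14.5 they spanned 2502 to 3189 and 2390 to 2758 CPM, and at E16.5 978 to 1074 and 975 to 1106 CPM. By the test, 1 of the 5 markers was lower at 12 h at E11.5, with a median log2 fold change of -0.15, beside 8.18% of all genes. At E14.5 1 was higher, and at E16.5 2 were higher and 2 lower. The part of progenitors in the changes of the mitotic kinesins was not tested.

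The transport kinesins had small shifts up, 6, 3 and 8 of 15 at the 3 stages, with medians of 0.23, 0.10 and 0.14. Kif1a rose at all 3 (log2 0.44, 0.25 and 0.33). Kif26b fell at E14.5 (log2 -0.65 ± 0.12, adjusted p = 0.0056), from 18.6 to 11.4 CPM in the mean, and rose at E16.5 (0.53 ± 0.07, adjusted p = 0.00081), from 84.3 to 118 CPM. It was the one member whose change over the chase was higher at E16.5 than at E14.5 by the test of the difference (0.302% of all genes).

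**Figure D3:**
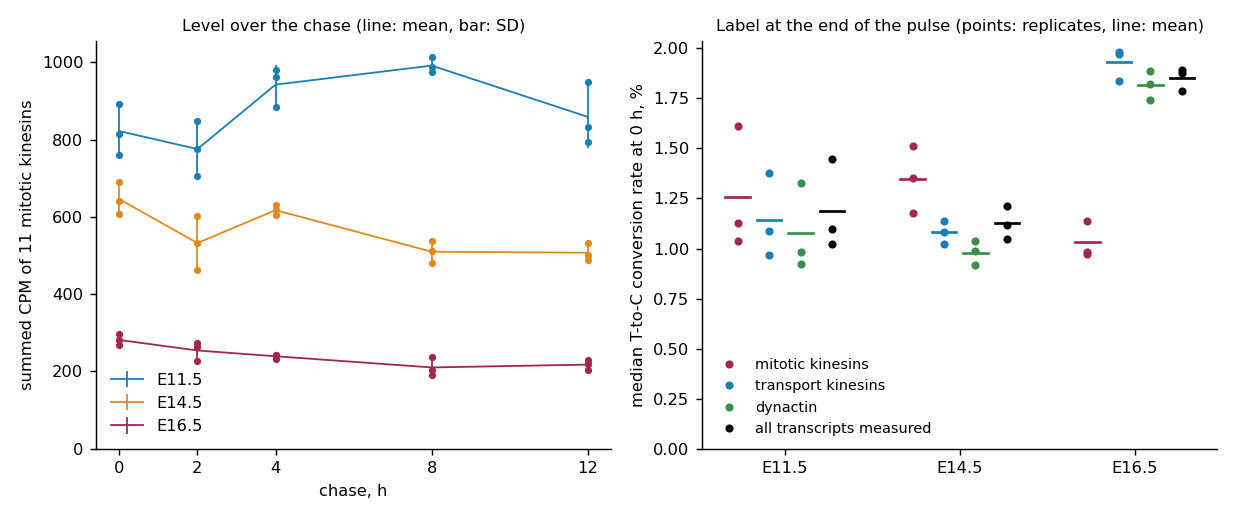
Left, summed CPM of the 11 mitotic kinesins over the chase by stage (points: libraries, line and bar: mean and SD). Right, median T-to-C conversion rate at 0 h by class and stage (points: replicates, line: mean). The sum ends at 507 and 218 CPM at E14.5 and E16.5, below its start, and the mitotic kinesins have the lowest median rate at E16.5, 1.03%, beside 1.85% for all transcripts.

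The conversion rate at 0 h, the share of covered T positions that read as C after 20 h of labelling, set the mitotic kinesins apart from the other motor classes at E16.5. Over all transcripts with a measured half-life the median was 1.19% ± 0.226, 1.13% ± 0.0827 and 1.85% ± 0.0564 in stage order (SD, n = 3). The mitotic kinesins had medians of 1.26% ± 0.309, 1.35% ± 0.168 and 1.03% ± 0.0917. At E14.5 all 11 were above the median of all transcripts, at a median percentile of 90.9. At E16.5 all 11 were below it, at a median percentile of 1.42. The spindle partners shared this, at median percentiles of 91.4 at E14.5 and 0.759 at E16.5, so it was not particular to the kinesins. For Kif11 the rates at 0 h were 1.356%, 1.512% and 1.056% at E14.5 and 0.945%, 1.063% and 1.124% at E16.5.

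In the transport kinesins the median rate rose with the rest, to 1.93% ± 0.0811 at E16.5, and 5 of 14 were below the median of all transcripts. Dynactin had 1.82% ± 0.0743 and the light chains 1.88% ± 0.0156. The highest mean rate of a member at E16.5 was that of Dynlrb1, 3.01%, and Kif5a had 2.204%, 2.034% and 2.111%.

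Half-lives were fitted to the loss of conversions for transcripts with over 500 covered T positions at all chase times. They could be measured for 48, 48 and 50 members in stage order, and for 47 at all 3 stages, of 9505 transcripts in all. Dync1i1 was missing at E11.5 for coverage (318 T positions at the lowest) and Dync2li1 at E14.5 for its fit. The conversion rate of unlabelled RNA was not measured here, and the 1st percentile of rates in well covered genes, 0.0923% to 0.122%, was taken as the background in an alternative. In hours, medians of all transcripts were 4.38 h ± 0.449, 4.56 h ± 0.191 and 3.46 h ± 0.0741 in stage order (SD, n = 3). The first 2 lay within their spread, while at E16.5 9.92% of transcripts were longer than at E11.5 and 5.89% longer than at E14.5, so that relative half-lives, z-scored within each replicate, are used for tests between stages.

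The mitotic kinesins were short-lived at the earlier stages. In stage order their medians were 3.56, 3.32 and 3.84 h, from 3.70, 4.08 and 2.90 h, then 3.17, 3.07 and 3.71 h, and 3.86, 4.02 and 3.62 h in single replicates. They lay below the median of all transcripts at the first 2 stages and above it at E16.5. With the 1st percentile of rates subtracted as background, the E16.5 medians were 3.09 h and 3.10 h, so that the place above all transcripts at E16.5 was lost, and without the 12 h libraries they were 3.34 h and 3.31 h. Transport kinesins had 4.60 h ± 0.518, 5.27 h ± 0.313 and 3.99 h ± 0.111 (SD, n = 3). The light chains had 5.63 h ± 0.969, 5.57 h ± 0.495 and 4.62 h ± 0.0179, and dynactin 5.72 h ± 0.558, 6.58 h ± 0.399 and 5.20 h ± 0.102. From E14.5 to E16.5, 5.89% of all transcripts had a longer mean half-life in hours, against 7 of 11 mitotic kinesins and none of 14 transport kinesins and 6 dynactin subunits. On the relative scale all 11 mitotic kinesins were higher at E16.5 than at E14.5, with a median z difference of 0.81, beside 46.9% of all transcripts.

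**Figure D4:**
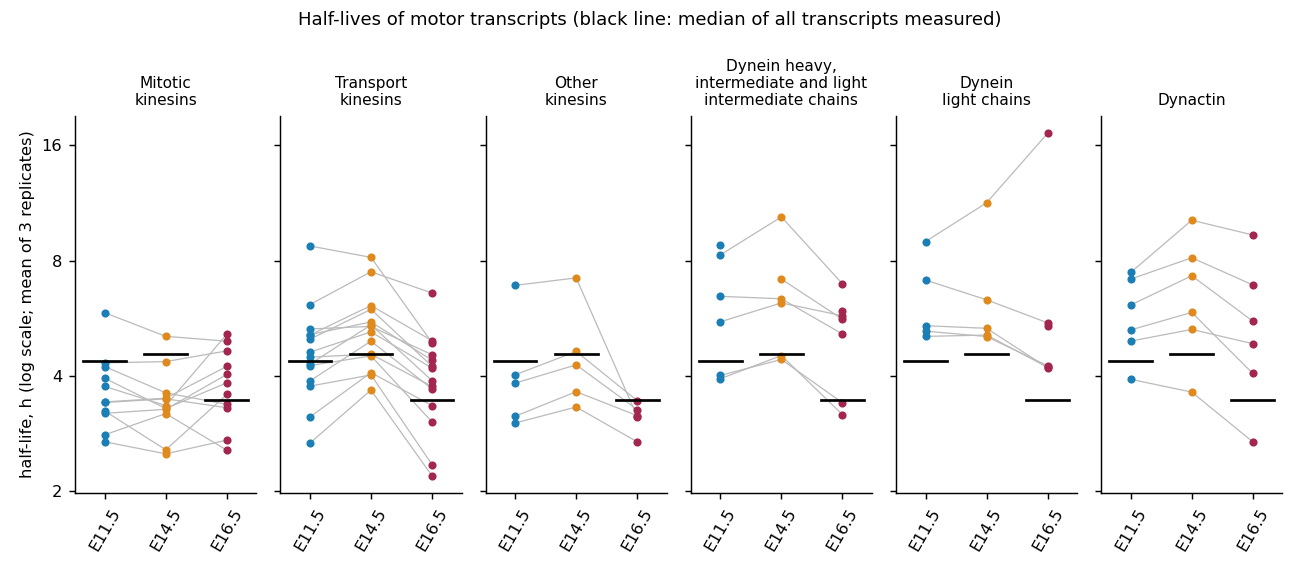
Mean half-life in hours (log scale) of each measured member at the 3 stages, by class (points: means of 3 replicates, grey lines join a gene, black line: median of all transcripts measured). Most members follow the shorter black line at E16.5, the mitotic kinesins stay at 3.84 h in the median, and Dynlrb1 goes up to 17.2 h, extrapolated beyond the 12 h chase.

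Across members, half-lives ranged at E16.5 from 2.19 h for Kif13b, a motor of phosphoinositide vesicles, to 17.2 h for Dynlrb1. The replicates of Dynlrb1 were at 13.5, 20.7 and 17.4 h there, all beyond the 12 h chase, so these values are extrapolated. Within the mitotic class at E11.5, Kif18a (2.92, 2.78 and 2.37 h) and Kif14 (2.68, 2.85 and 2.89 h) had the lowest means and overlapped, and both lay apart from Kif15, the longest in the mean (5.89, 6.15 and 5.50 h). In dynactin, Dctn4 had 3.92 h ± 0.294, 3.63 h ± 0.263 and 2.69 h ± 0.0707 while Dctn3 had 7.45 h ± 0.591, 10.2 h ± 1.64 and 9.33 h ± 1.46, so that subunits of 1 complex differed by over their spread at each stage. Dync1h1 was at 9.20, 9.01 and 6.62, then 9.93, 9.99 and 11.3, and 6.83, 7.08 and 6.96 h in the replicates of the stages. The lowest 12 h values of Kif14, Kif7, Kif16b, Dynlt1a and Dynlt1f at E16.5, and of Kif16b at E14.5, rest on 2 or fewer converted T positions in a library, so their half-lives carry a large counting error.

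Relative half-life changed across stages for 7 of 47 members by the moderated F-test of limma, beside 3.15% of all transcripts. These were Dync1i2, Dynlrb1, Kif1a, Kif20a, Kif22, Kif26a and Kif2c, with adjusted p from 0.0210 to 0.0497. The calls lie close to the threshold: their number was 0 without E16.5 replicate B or C, 1 without E16.5 replicate A, and 2 to 5 without any other single replicate. For E16.5 against E11.5, 8 members were longer on the relative scale (Dync1i2, Dynlrb1, Kif1a, Kif22, Kif2c, Kif3b, Kif3c and Kif5c) and Kif26a and Kif5a were shorter, beside 2.99% and 1.71% of all transcripts. Leaving out single replicates gave 1 to 6 longer and 0 to 2 shorter. For E16.5 against E14.5 Dynlrb1, Kif20a and Kif22 were longer (0.684% of all transcripts) and none was shorter (0.2%), and for E14.5 against E11.5 limma called 0 (longer 0.126% and shorter 0.0736% of all), with 6 longer and 2 shorter at an unadjusted p under 0.05.

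Kif22 kept its half-life in hours while those of most transcripts became shorter. It was at 4.32, 4.78 and 3.87, then 4.63, 4.28 and 4.17, and 4.54, 4.53 and 4.87 h. The stages overlapped in hours, and the z difference between E16.5 and E14.5 was 0.81 ± 0.12 (SE, adjusted p = 0.0329). Kif20a was at 3.84, 4.79 and 3.20, then 3.08, 3.07 and 3.71, and 3.86, 4.02 and 3.62 h, and Kif2c at 3.29, 3.63 and 2.66, then 3.47, 3.08 and 3.27, and 4.76, 3.57 and 3.77 h. With the 1st percentile of rates subtracted as background, the F-test called none of these 3 (adjusted p = 0.0635 to 0.116). Their 12 h rates at E16.5 rest on as few as 10 or 11 converted T positions in a library.

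Kif1a was at 5.96, 7.16 and 5.31, then 7.40, 7.45 and 7.58, and 6.54, 6.72 and 6.48 h. In hours E16.5 lay within the range of E11.5, and the z difference was 0.97 ± 0.13 (adjusted p = 0.0099), with the transcript at percentile 82.3 of all at E11.5 and 93.0 at E16.5. Kif5c and Kif3c, whose levels also rose, had z differences of 0.53 and 0.41 (adjusted p = 0.0468 and 0.0462). In hours their means were lower at E16.5, at 4.94 and 3.70 h, than at E11.5, at 5.11 and 3.88 h. The F-test passed for neither of them (adjusted p = 0.0867 and 0.0609). Dync1i2, whose level did not change between these stages by the test, had 5.06, 6.48 and 5.07 h at E11.5 and 5.69, 5.83 and 5.71 h at E16.5, with a z difference of 0.77 ± 0.13 (adjusted p = 0.0228).

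Kif5a had a shorter relative half-life at E16.5 than at E11.5. Its half-life was 9.16, 9.08 and 7.96, then 7.06, 7.38 and 10.0, and 5.15, 4.49 and 5.01 h. All E16.5 values were below all others, while its level was highest there. The z difference between E16.5 and E11.5 was -1.37 ± 0.27 (adjusted p = 0.0324), beside 0.14 ± 0.09 for Kif5b (adjusted p = 0.413), and the F-test of Kif5a did not pass (adjusted p = 0.0666). At 12 h, 40.0% ± 3.86, 37.7% ± 6.13 and 16.7% ± 6.21 of the 0 h rate were left in stage order (SD, n = 3).

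Kif26a, an atypical kinesin of enteric neurons and neuronal migration, lost label up to 8 h and little after it at the earlier stages. Of the 0 h rate, 42.2% ± 2.12 was left at 8 h and 44.1% ± 2.06 at 12 h at E11.5, and 44.2% ± 4.76 and 43.2% ± 4.29 at E14.5. At E16.5 21.3% ± 6.88 and 16.7% ± 10.7 were left (SD, n = 3), and the replicates were at 0.611%, 0.123% and 0.409% conversion at 12 h. The single exponential had R2 of 0.816 to 0.844, 0.768 to 0.917 and 0.910 to 0.993 in stage order. The fitted half-lives were 6.72, 7.30 and 6.66 h, then 7.34, 6.49 and 7.79 h, and 3.85, 2.25 and 3.30 h at E16.5, apart from both earlier stages, with a z difference of -1.47 ± 0.27 against E11.5 (adjusted p = 0.0271). Without the 12 h libraries the F-test did not pass (adjusted p = 0.0722).

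**Figure D5:**
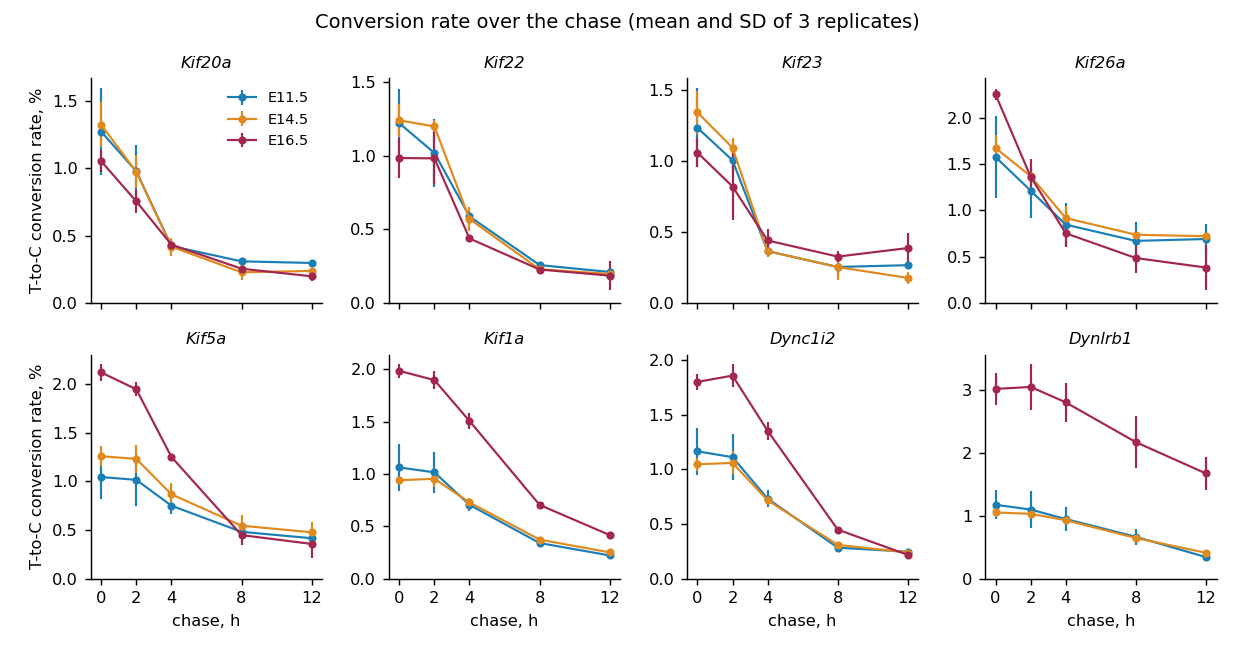
T-to-C conversion rate in percent over the chase for 8 members by stage (points and bars: mean and SD of 3 replicates). Dynlrb1 starts at 3.01% and keeps 55.3% of it at 12 h at E16.5, Kif26a changes little between 8 and 12 h, within the spread at E16.5 too, and the mitotic kinesins Kif20a, Kif22 and Kif23 start lowest at E16.5.

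Transcript structure was compared with half-life as a description. Over the 47 members measured at all stages, log half-life and 3′ UTR length had Pearson's r of -0.28 and Spearman's rho of -0.30, beside -0.25 and -0.29 over 8821 transcripts. Members share libraries, and no test was made. The median 3′ UTR was 555 nucleotides in mitotic kinesins, 2742 in transport kinesins and 418 in dynactin, so that the mitotic kinesins joined short 3′ UTRs with short half-lives at the first 2 stages, where dynactin joined short ones with long half-lives.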

How the data were processed

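SLAM-seq reads RNA turnover from T-to-C conversions in 4sU-labelled RNA. Per the labels, alkylated RNA was made into libraries with the Illumina Stranded mRNA Prep kit, and no molecular identifiers are mentioned. Per the methods, the authors mapped reads to mm10 with SlamDunk 0.4.3 and summed covered and converted T positions over the exons (GENCODE vM24) of a gene. The deposited values used were the conversion rate (a fraction, printed as percent), counts of covered T positions, and reads per 1000000 reads (CPM). Reads recovered from the deposited CPM were whole for 100% of values within 0.01 reads. The authors' half-life, R2 and mean columns were not used, and all other value columns matched a sample (0 unmatched).

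The gene family, although its members follow from their symbols, and the lists were chosen with earlier results of these data known. Covered T counts over 10 in each compared library were tested with edgeR 4.0.16 (TMM, quasi-likelihood, Benjamini-Hochberg over all genes), and called at an adjusted p under 0.05 with and without a 2-fold limit. Half-lives were fitted to rates divided by the 0 h rate, exp(-kx), for over 500 covered T positions, R2 over 0.6 and under 24 h in all 3 replicates. They were z-scored per replicate and tested with limma 3.58.1 (R 4.3.3). DESeq2 1.42.0 was an alternative. Other steps used Python 3.11.15 with scipy 1.17.1, and the tests and the fit were tested on simulated data. Gene models here are GENCODE vM21 (GRCm38), which named 51678 of 53491 symbols and all 62 members.

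Named genes were, in each class, the 3 largest and 3 smallest fold changes between E16.5 and E11.5, the 2 longest and 2 shortest half-lives, all members called by the F-test, and a fixed list of best known motors. Of partners, the 2 largest changes each way were named. Others were named after their values were seen, where counts were 5 or fewer or a result turned on them. Depth was 228.7 to 629.1 M covered T positions per library. Replicates are pools of embryos. Wells of 0 h and 12 h with the same letter come from the same pool (correlation of deviations 0.0849 to 0.274), so a fit with the pool as a block was an alternative. Labels give no date or batch, and no time-course regression (maSigPro) was run.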

Additional observations from a re-analysis of the deposited data

Results flagged for a closer look

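Results here are differences between stages in the change of level over the 12 h chase, in log2 units, that passed the test of the difference itself (edgeR, adjusted p from 0.000189 to 0.0371). Among mitotic kinesins, the change at E16.5 minus that at E11.5 was -0.60 for Kif11, -1.03 for Kif14, -0.58 for Kif18a, -0.63 for Kif18b, -0.61 for Kif20a, -0.59 for Kif22, -0.68 for Kif23, -0.88 for Kif2c and -0.44 for Kif4. The change at E14.5 minus that at E11.5 was -0.58 for Kif11, -0.99 for Kif14, -0.62 for Kif15, -0.63 for Kif18a, -0.54 for Kif18b, -0.69 for Kif20a, -0.57 for Kif22, -0.70 for Kif23, -0.77 for Kif2c and -0.54 for Kif4.

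Among the other members, the atypical kinesin Kif26a differed by -0.87 between E16.5 and E11.5 and by -0.85 between E14.5 and E11.5. Kif26b differed by -0.99 between E14.5 and E11.5 and by 1.22 between E16.5 and E14.5. Kif13a differed by 0.47 and Dync1i1 by -0.67 between E14.5 and E11.5, and Dync2li1 by 0.49 between E16.5 and E11.5. The 3 stages share no libraries, but each stage enters 2 of these comparisons. Those with E11.5 use the 12 h libraries in which Gm42418 took 29686 to 67623 CPM, and its part was not tested.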

How the results depend on the processing

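No value changed sign under the alternatives run. Of the summary values, 311 were within their spread or within 1.5 times of the reported count and 85 moved. Results of single genes were counted once for each gene, comparison and alternative, so a gene enters many times. Of these, 1275 kept their call, 133 lost it and 9 gained it. The causes were not tested.

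With adjusted p alone in place of the 2-fold limit, E14.5 against E11.5 had 22 members higher and 15 lower, 8 mitotic kinesins lower and 10 transport kinesins higher. E16.5 against E14.5 had 15 members higher and 20 lower and 6 transport kinesins higher, and E16.5 against E11.5 had 25 members and 11 transport kinesins higher. At 12 h against 0 h the members higher and lower were then 14 and 1 at E11.5, 5 and 8 at E14.5 and 15 and 10 at E16.5. With limma on log2 CPM (pseudocount 0.5), 3 members and 2 transport kinesins were higher over 2-fold at E16.5 against E11.5. On recovered reads 0 members rose over 2-fold over the chase at E11.5.

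Leaving out single replicates gave 0 to 1 transport kinesins higher over 2-fold at E16.5 against E14.5, and 0 to 1 members higher over 2-fold at 12 h at E11.5. By adjusted p alone, mitotic kinesins higher at 12 h at E11.5 were 0 to 2, those lower at E14.5 were 2 to 2 and those lower at E16.5 were 3 to 8. For relative half-life, members called across stages were 0 to 5, and those longer and shorter at E16.5 against E11.5 were 1 to 6 and 0 to 2.

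With the pool as a replicate block, 9 mitotic kinesins were higher at 12 h at E11.5. Between stages the letters share only a number (correlations of -0.0571 to 0.0606), and a replicate block left 7 members higher and 16 lower over 2-fold at E16.5 against E11.5. In relative half-life the block left 0 members called across stages and 3 longer.

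Hours without scaling gave 1 member longer at E16.5 against E11.5. Members shorter were 1 with background subtracted, 1 at R2 over 0.8 and 0 without the 12 h libraries. With background subtracted, the median half-lives in stage order were 3.53, 3.72 and 3.10 h for all transcripts, 2.82, 2.72 and 3.09 h for mitotic kinesins, 3.77, 4.36 and 3.63 h for transport kinesins, 4.65, 4.41 and 4.25 h for light chains and 4.71, 5.47 and 4.81 h for dynactin. At R2 over 0.8 they were 4.35 and 3.29 h for all transcripts at E14.5 and E16.5, 3.31 h for mitotic and 4.12 h for transport kinesins at E16.5, and 5.57 and 4.45 h for dynactin at E14.5 and E16.5. At over 2000 covered T positions, transport kinesins had 4.12 h and light chains 4.33 h at E16.5. Without the 12 h libraries, all transcripts had 4.21 and 3.31 h at E14.5 and E16.5, and mitotic kinesins 3.34 h and light chains 4.54 h at E16.5. Members under 1 CPM and rates resting on few converted T positions at 12 h are limited by depth.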

Other observations

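The spindle partners, which are no motors of the 3 families apart from Cenpe and Kifc1, were examined by the same measures as the mitotic kinesins, and the sets were not compared by a test. Over the chase, 6 of 18 were higher at 12 h at E11.5, and 12 and 14 of 18 were lower at E14.5 and E16.5, beside 10.3% of all genes higher and 5.63% and 11.4% lower, with medians of 0.19, -0.38 and -0.35 on the log2 scale. Their median conversion rate at 0 h was 1.28%, 1.34% and 0.983% in stage order, and at E16.5 all 17 measured were below the median of all transcripts. The relative half-life of all 17 was higher at E16.5 than at E14.5, with a median z difference of 0.76, and 6 of them passed the test, beside 0.684% of all transcripts. The list was chosen with results of these data known, and no explanation was tested.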
